A study of Mus musculus with 24 samples.

Results

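*Cxcl1*, *Cxcl2*, *Cxcl3* and *Cxcl5* encode the neutrophil-attracting CXC chemokines of mouse chromosome 5, and their mRNA was followed here in mouse embryonic fibroblasts (MEFs) with and without the tumor suppressor LKB1. The 4 genes were chosen by name as ligands of the receptor CXCR2 in this gene cluster (*Ppbp*, which lies among them and encodes another, was not included), out of 55471 genes in the count tables, and all 4 passed the filter on low counts that kept 17522 genes. RNA-seq covered 24 libraries in 8 groups of 3. The groups were wild-type (WT) MEFs, LKB1 knockout (KO, *Lkb1*-/-) MEFs and LKB1/CRTC2 double knockout MEFs of clones DKO_A1 and DKO_A2 (clones A1 and A2, *Lkb1*-/-/*Crtc2*-/-), each either untreated (ctrl) or given IL-1β at 0.1 ng/mL, with RNA taken after 6 hours. All are 3T3 MEFs, fibroblasts made immortal by serial passage. WT and KO MEFs are separate lines, 1 for each genotype, so that the loss of LKB1 and other differences between these lines cannot be told apart. *Lkb1* is the gene *Stk11* of the annotation, both clones carry the *Lkb1* deletion of the KO cells as well, and each clone stands for 1 edited cell line, so that a trait of the clone and the loss of CRTC2 cannot be told apart in either clone alone. The labels do not say whether the 3 libraries of a group came from separate cultures, so p-values measure the spread between these libraries, which may be technical. In bulk RNA, fewer cells that make a transcript and less of it per cell cannot be told apart.

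CXC chemokines with a glutamate-leucine-arginine motif before the paired cysteines bind CXCR2 on neutrophils and draw these cells out of the blood into inflamed tissue. Fibroblasts and other stromal cells make them within hours of contact with IL-1, whose receptor signals through MYD88 and IRAK kinases to the transcription factor NF-κB. Their transcripts are short-lived, since AU-rich elements in the 3′ untranslated region recruit decay factors such as tristetraprolin. LKB1 is a kinase that activates the salt-inducible kinases, which hold the CREB coactivator CRTC2 in the cytoplasm.

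The 4 genes lie on the plus strand within 147 kb of chromosome 5 (GRCm38), in the order *Cxcl5* (chr5:90759360-90761624), *Cxcl3* (chr5:90786103-90789600), *Cxcl1* (chr5:90891241-90893115) and *Cxcl2* (chr5:90903871-90905938). *Ppbp* and *Pf4*, which encode platelet chemokines, lie between *Cxcl5* and *Cxcl3*, and *Cxcl15* lies next to *Cxcl3*. In the coding sequence *Cxcl2* and *Cxcl3* were 89.7% identical, *Cxcl1* was 80.1% identical to *Cxcl2* and 75.6% to *Cxcl3*, and *Cxcl5* was the most distant, with 56.3% to 62.5% identity to the others. Of the 50-base windows of the *Cxcl3* transcript, 6.31% also occurred in *Cxcl2*, against 3.37% of the *Cxcl2* windows in *Cxcl3* and none of the *Cxcl1* windows in any other gene. Of the *Cxcl5* windows 3.08% occurred in 4 genes outside the family, *Cd69* and *Ilf2* among them. A single read from the shared windows cannot be assigned to 1 gene. Read pairs were counted, however, and the other read of a pair can lie outside these windows. The uncertain share of the counts of *Cxcl2*, *Cxcl3* and *Cxcl5* was not measured.

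**Figure D1:**
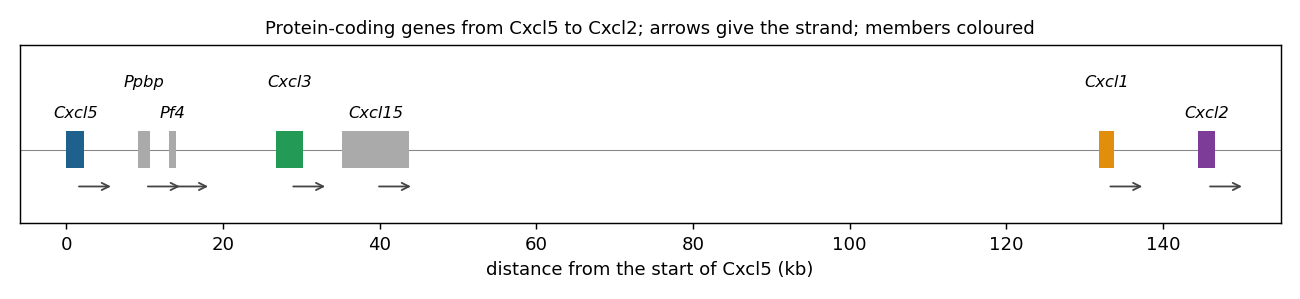
Positions of the 7 protein-coding genes from *Cxcl5* to *Cxcl2*, with the distance from the start of *Cxcl5* in kilobases on the x axis and arrows for the strand. *Cxcl3* starts 26.7 kb from the start of *Cxcl5*, while *Cxcl1* and *Cxcl2* form a separate pair at 132 and 145 kb.

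RefSeq promoters (GRCm38.p6) were at hand for 3 of the 4 genes and are shown because all 3 genes rose with IL-1β in KO MEFs. Each line gives the 250 bases before the RefSeq start, plus strand, with the matches to the motifs searched in capitals. The RefSeq starts differ from the gene starts given above, which are from another annotation (GENCODE). The *Cxcl1* and *Cxcl2* lines end inside the genes as placed there, which start at 90891241 and 90903871.

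Cxcl1 (chr5:90890995-90891244): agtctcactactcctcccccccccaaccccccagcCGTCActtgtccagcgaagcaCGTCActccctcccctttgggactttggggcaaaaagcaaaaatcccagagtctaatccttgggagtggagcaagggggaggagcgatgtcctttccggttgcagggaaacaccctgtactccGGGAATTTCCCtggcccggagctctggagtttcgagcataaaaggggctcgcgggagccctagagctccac
Cxcl2 (chr5:90903649-90903898): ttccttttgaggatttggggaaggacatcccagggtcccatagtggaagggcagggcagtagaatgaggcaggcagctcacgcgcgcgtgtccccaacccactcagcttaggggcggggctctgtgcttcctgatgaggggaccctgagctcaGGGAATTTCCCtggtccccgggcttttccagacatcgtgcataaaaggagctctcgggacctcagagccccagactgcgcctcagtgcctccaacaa
Cxcl3 (chr5:90785851-90786100): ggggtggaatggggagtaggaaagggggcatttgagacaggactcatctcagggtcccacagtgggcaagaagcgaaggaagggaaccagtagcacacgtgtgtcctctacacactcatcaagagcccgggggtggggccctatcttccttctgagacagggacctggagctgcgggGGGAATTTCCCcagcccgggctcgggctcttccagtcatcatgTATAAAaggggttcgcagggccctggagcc

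All 3 promoters held the same pair of overlapping matches to the NF-κB consensus, GGGAATTTCC and GGAATTTCCC. Counted from the RefSeq start, the pair ran from -71 to -61 in *Cxcl1*, from -97 to -87 in *Cxcl2* and from -73 to -63 in *Cxcl3*. Of 32851 promoters of the same length, 11.2% held a match to this consensus on either strand. The short CRE core TGACG, part of the sequence that CREB binds, was present in *Cxcl1* in reverse (CGTCA) at -215 to -211 and -194 to -190, and 20.8% of all promoters held it. The TATA box letters TATAAA occurred in *Cxcl3* at -30 to -25 (13.6% of all promoters). None of the 3 promoters held the full CRE TGACGTCA (1.79% of all), the AP-1 site TGANTCA (7.81%) or the C/EBP site TTGCNNAA (10.8%). The searches covered both strands and the first 50 transcribed bases too, and a match is a run of letters, not a bound site. The promoters were 66.9% to 72.5% identical in pairs.

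The 3′ untranslated regions of the 4 longest coding transcripts each held several copies of ATTTA, the core pentamer of the AU-rich decay element. *Cxcl1* held 7 in 592 bases, *Cxcl2* 11 in 1494 bases, *Cxcl3* 5 in 645 bases and *Cxcl5* 5 in 1111 bases, while the median over 21022 genes was 1. Per kilobase the order was *Cxcl1* (11.8), *Cxcl3* (7.75), *Cxcl2* (7.36) and *Cxcl5* (4.5), and 0.799%, 2.52%, 2.91% and 9.87% of all genes had at least these densities. By number alone 13.1% of all genes held as many as *Cxcl1* or more, 5.41% as many as *Cxcl2* and 21.3% as many as *Cxcl3* and *Cxcl5*.

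The libraries held 38842901 to 48594394 counts on genes, with a median of 42431965. Values below are CPM, a gene's share of all counts in the library scaled by TMM, and differences are log2 fold changes from edgeR's quasi-likelihood test over all 24 libraries, called at a Benjamini-Hochberg FDR under 0.05. *Stk11* fell to 17.3 ± 1.24 CPM (SD, n = 3) in untreated KO MEFs from 86.0 ± 1.68 in WT, a 4.96-fold difference, and stayed between 18.1 and 22.5 CPM on average in the clones. *Crtc2* stood at 81.1 ± 1.80 CPM in untreated KO MEFs and fell to 42.9 ± 2.11 in A1 and 49.8 ± 0.864 in A2, so that its transcript was lower in the clones but present. The 10 fibroblast markers summed to between 5720 and 9930 CPM in every library, but single markers differed by genotype: *Dcn* stood at 0.411 CPM in untreated WT and 218 in KO, *Pdgfra* at 4.58 and 342, and *Col1a2* at 780 and 63. The 10 leukocyte markers summed to 3.06 to 5.46 CPM in WT, 6.62 to 10.4 in KO and 6.42 to 12 in the clones. Most of this was *Cd68*, *Csf1r* and *S100a8*. The pan-leukocyte gene *Ptprc* had at most 1 count in any library, and of the neutrophil genes *S100a9* had 0 and *Ly6g* averaged 0.827 CPM in untreated WT, 0.669 in KO, 0.128 in A1 and 0.223 in A2. The 6 epithelial markers summed to at most 2.93 CPM and the 5 endothelial markers to at most 4. Of the leukocyte markers, *Csf1r* and *S100a8* were higher in KO than in WT, like the chemokines (at 1.68 and 2.49 CPM in untreated KO). *Ly6g* was lower in both clones than in KO in both conditions and *S100a8* in A1 (0.616 CPM untreated), as were some of the chemokines, while *Cd68* was higher in both clones. The part of these markers in the results was not tested. In every group replicate 1 stood apart from replicates 2 and 3, with a chi-square per degree of freedom over genes of 37.7 to 106 against 7.41 to 18.6 between replicates 2 and 3. Without the replicate 1 libraries, a fit chosen after seeing the data, the calls of the 4 genes were the same in every comparison except A2 against KO untreated and A2 against A1 after IL-1β, where the values are given with the results. The *Cxcl3* differences moved most without them: after IL-1β KO against WT was 6.52 (log2) in place of 4.91, A1 and A2 against WT 3.35 and 3.97 in place of 1.73 and 2.06, and the change with IL-1β was 0.93 in place of 2.58 in WT and 5 in place of 3.02 in A2.

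**Figure D2:**
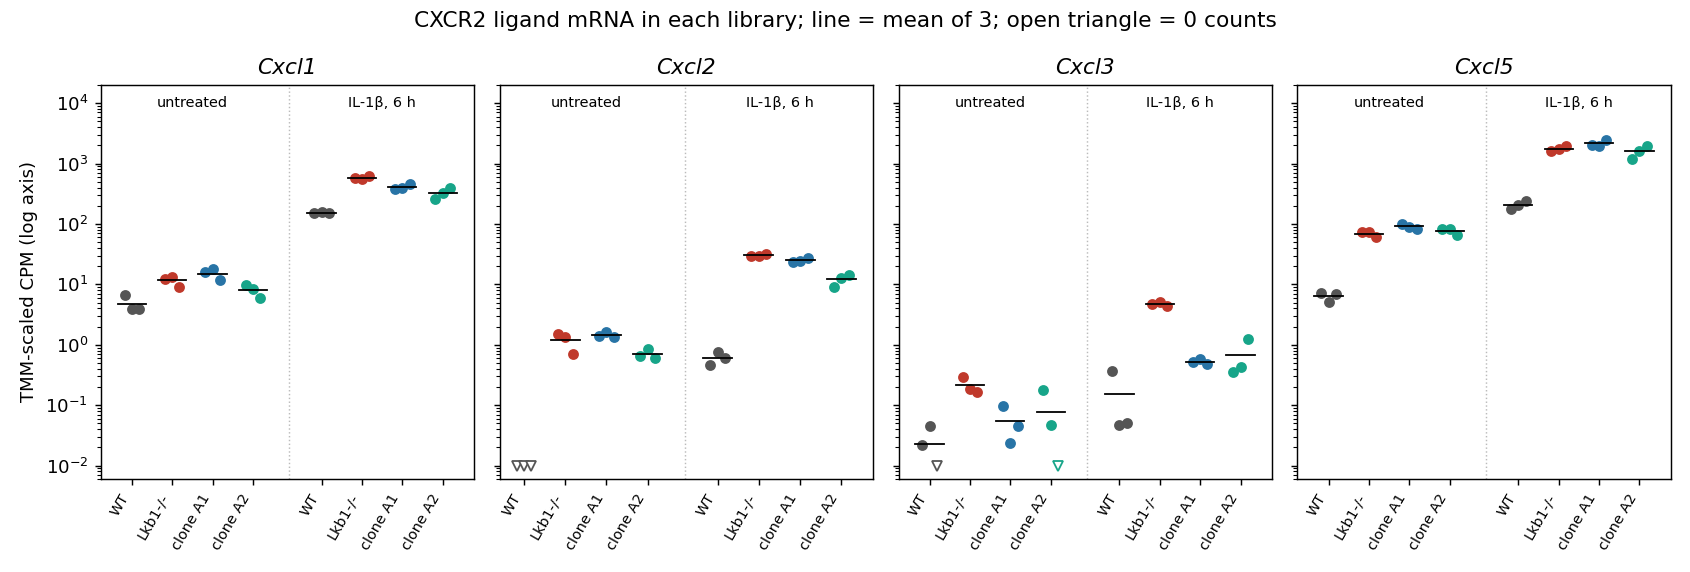
CPM of the 4 chemokine genes in each of the 24 libraries on a log axis, by genotype and treatment, with the mean of 3 libraries as a line and libraries at 0 counts as open triangles. *Cxcl5* and *Cxcl1* stand far above *Cxcl2* and *Cxcl3* in every group, and the WT libraries are the lowest of their treatment for each gene on average.

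KO and WT MEFs were first compared without stimulation. As said above, loss of LKB1 and other differences between these lines cannot be told apart here. All 4 chemokine genes were higher in untreated KO than in untreated WT MEFs, against 30.1% of all genes tested that were called higher and 55.9% called in either direction. After IL-1β all 4 were higher again, against 30.2% called higher and 57.4% in either direction. The size of each difference is given by gene.

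*Cxcl5*, the ligand also known as LIX, measured 7.30, 5.09 and 6.86 CPM in the 3 untreated WT libraries and 74.2, 73.3 and 60.9 CPM in the untreated KO libraries. Every KO library was far above every WT library, by 10.8-fold (log2 3.44, SE 0.19, edgeR FDR 1.8e-12). After IL-1β it measured 179, 204 and 237 CPM in WT and 1588, 1762 and 1939 CPM in KO. The groups stayed apart, by 8.53-fold (log2 3.09, SE 0.18, edgeR FDR 3.1e-12). All untreated KO libraries were below all stimulated WT libraries for this gene.

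*Cxcl1*, also known as KC, measured 6.63, 3.96 and 3.86 CPM in untreated WT and 12.5, 13.3 and 9.14 CPM in untreated KO libraries. The lowest KO library was above the highest WT library, and the fold was 2.41 (log2 1.27, SE 0.22, edgeR FDR 3.4e-05). After IL-1β the 3 WT libraries lay close together at 153, 157 and 152 CPM, and the KO libraries reached 573, 549 and 611 CPM. The groups were well apart, with a fold of 3.75 (log2 1.91, SE 0.19, edgeR FDR 1.9e-08).

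*Cxcl2*, also known as MIP-2, had 0 counts in all 3 untreated WT libraries, where 3 counts in each library would give 0.0714 CPM. It was detected in all untreated KO libraries at 1.49, 1.37 and 0.714 CPM, at least 16.7-fold above the limit that 0 counts in WT allows (edgeR FDR 1.8e-09). After IL-1β it measured 0.469, 0.747 and 0.595 CPM in WT, on 19 to 32 counts, and 29.5, 29.9 and 31.6 CPM in KO. The groups did not come near each other, and the fold was 49.9 (log2 5.64, SE 0.24, edgeR FDR 1.6e-13). Untreated KO libraries overlapped with stimulated WT libraries for this gene.

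*Cxcl3*, also known as DCIP-1, had the fewest counts of the 4 genes in every group except untreated WT, where *Cxcl2* had 0. It had 1, 2 and 0 counts in untreated WT and 13, 8 and 7 counts in untreated KO libraries. The groups did not overlap, and the pooled ratio was 9.14 (95% exact interval 2.82 to 47.0, for counting error only). The call (log2 3.04, SE 1.0, edgeR FDR 0.015) was lost without 1 WT library (replicate 3, FDR 0.06) or 1 KO library (replicate 1, FDR 0.057), and the value ranged from 2.51 to 3.88 (the latter without WT replicate 2) when 1 library was left out. After IL-1β there were 15, 2 and 2 counts in WT and 199, 246 and 185 in KO, or 0.156 ± 0.185 against 4.77 ± 0.336 CPM (SD, n = 3). The fold of 30.1 (log2 4.91, SE 0.60, edgeR FDR 4.2e-07) was called also without any 1 library, and was larger without the WT library of 15 counts, replicate 1 (log2 6.52).

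**Figure D3:**
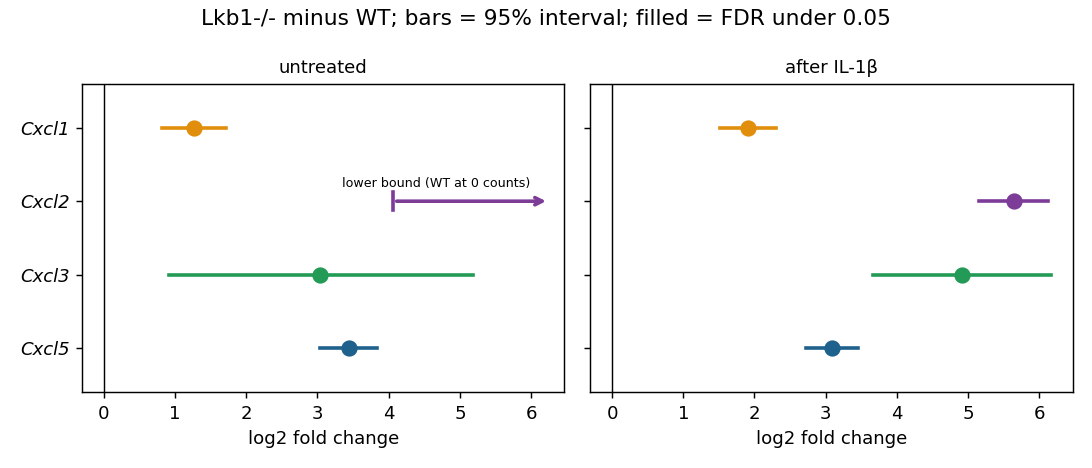
Log2 fold changes of KO over WT MEFs for the 4 genes, untreated and after IL-1β, with 95% intervals as bars and filled points for FDR under 0.05. *Cxcl2* untreated is drawn as a lower bound, and after IL-1β *Cxcl2* (5.64) and *Cxcl3* (4.91) lie to the right of *Cxcl5* (3.09) and *Cxcl1* (1.91).

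Stimulation with IL-1β was compared with no treatment within each genotype. The number of genes called over the whole table depended on the replicate block: 396 in WT, 831 in KO, 348 in A1 and 995 in A2 of 17522 genes without it, 1629, 2601, 1684 and 3133 with it, and 2823, 3966, 2860 and 4557 with a block within each genotype (chosen after seeing the data). The shares of all genes given below are those without a block, and the number of the 4 genes called was the same in all 3 fits. In WT MEFs *Cxcl1*, *Cxcl2* and *Cxcl5* rose, 3 of the 4 genes, against 1.53% of all genes tested (2.26% in either direction). *Cxcl5* rose 32.2-fold (log2 5.01, SE 0.20), *Cxcl1* 31.8-fold (log2 4.99, SE 0.23) and *Cxcl2* at least 8.45-fold from 0 counts. *Cxcl3* was not called in WT (log2 2.58, SE 1.1, edgeR FDR 0.34), with a pooled ratio of 6.57 (95% exact interval 1.93 to 34.7) that rests on 15 counts in 1 library.

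In KO MEFs all 4 rose, against 2.65% of all genes (4.74% in either direction). *Cxcl1* rose 49.6-fold (log2 5.63, SE 0.23), *Cxcl5* 25.4-fold (log2 4.67, SE 0.19), *Cxcl2* 25.3-fold (log2 4.66, SE 0.22) and *Cxcl3* 21.8-fold (log2 4.45, SE 0.57), with edgeR FDR of 2.7e-05 or less for each.

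In clone A1 all 4 rose as well, against 1.20% of all genes (1.99% in either direction), and in clone A2 all 4 rose against 2.81% (5.68% in either direction). *Cxcl1* rose 26.9-fold in A1 and 40.7-fold in A2, *Cxcl5* 23.6-fold and 20.8-fold, and *Cxcl2* 16.9-fold and 17.1-fold. *Cxcl3* rose from 7 to 65 counts over the 3 libraries of A1 (edgeR FDR 0.035) and from 11 to 86 in A2 (edgeR FDR 0.010). These *Cxcl3* calls were weak: in A1 the call was lost when any of the 6 libraries was left out (FDR up to 0.17), and in A2 when replicate 2 or 3 of the untreated or replicate 3 of the stimulated libraries was left out (FDR up to 0.076), and with only the A2 libraries in the fit (FDR 0.20). The A2 value of 3.02 (log2) was 4.71 without replicate 1 of the untreated and 2.28 without replicate 3 of the stimulated libraries, and the A1 value of 3.17 was 3.79 without replicate 1 of the untreated libraries.

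The IL-1β responses of the genotypes were also compared with each other, as differences of log2 fold changes. None of the 4 genes was called in any of the 4 comparisons by edgeR or DESeq2 with the filter on low counts. With no filter edgeR called *Cxcl1* in 3 of them, between KO and WT (FDR 2.2e-05), A1 and KO (FDR 3.6e-10) and A2 and A1 (FDR 0.00033). With the filter, at an unadjusted p under 0.05 there were *Cxcl1* and *Cxcl2* between KO and WT and *Cxcl1* between A1 and KO and between A2 and A1. By edgeR 0.245% of all genes were called between KO and WT, 0.0285% between A1 and KO, and 0% between A2 and KO and between A2 and A1 (388 and 489 genes at an unadjusted p under 0.05, and 12 and 10 called by DESeq2). These shares are without a block. In the same order, the replicate block gave 311, 36, 18 and 30 genes. A block within each genotype gave 1003, 267, 183 and 262, and none of the 4 chemokine genes was called with either. The response of *Cxcl1* was larger in KO than in WT by 0.64 on the log2 scale (95% interval 0.05 to 1.23, unadjusted p = 0.035, edgeR FDR 0.82). The response of *Cxcl1* differed by -0.89 between A1 and KO (95% interval -1.45 to -0.32, unadjusted p = 0.0037, edgeR FDR 1) and by -0.28 between A2 and KO (95% interval -0.85 to 0.29). The response of *Cxcl5* differed by -0.34 between KO and WT (95% interval -0.85 to 0.16), by -0.11 between A1 and KO (95% interval -0.59 to 0.38) and by -0.29 between A2 and KO (95% interval -0.77 to 0.19). For *Cxcl2*, the difference between KO and WT depends on the prior count, since untreated WT had 0 counts, and is not given. It was -0.58 between A1 and KO (95% interval -1.18 to 0.02) and -0.57 between A2 and KO (95% interval -1.21 to 0.08). For *Cxcl3* the intervals were wide, -3.72 to 1.16 between A1 and KO and -3.55 to 0.69 between A2 and KO.

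Both clones were then compared with the KO MEFs, which asks whether the higher chemokine mRNA of *Lkb1*-/- MEFs was also present without CRTC2. The A1 and A2 comparisons share the KO libraries. After IL-1β, *Cxcl1* and *Cxcl3* were lower in A1, against 17.3% of all genes called lower and 36.7% in either direction. In A2 *Cxcl1*, *Cxcl2* and *Cxcl3* were lower, against 15.8% called lower and 32.8% in either direction. *Cxcl5* was called in neither clone.

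*Cxcl5* after IL-1β measured 1588, 1762 and 1939 CPM in KO, 1989, 1982 and 2477 CPM in A1, and 1171, 1615 and 1985 CPM in A2. The A1 libraries lay just above the KO libraries, and the A2 libraries spanned them. The difference from KO was 0.29 on the log2 scale in A1 (SE 0.16, 95% interval -0.05 to 0.62, edgeR FDR 0.19) and -0.15 in A2 (SE 0.16, 95% interval -0.49 to 0.19, edgeR FDR 0.53), so that a larger decrease than the lower ends of these intervals lies outside them. With no filter on low counts the A1 difference was called, as higher (edgeR FDR 0.003). Untreated *Cxcl5* stood at 69.5 ± 7.42 CPM in KO, 91.2 ± 9.81 in A1 and 76.5 ± 9.95 in A2 (SD, n = 3). The A1 difference of 0.39 (edgeR FDR 0.071) passed once the replicate number entered the model (FDR 0.036), with only the groups compared (FDR 0.025) and with no filter on low counts (FDR 3.9e-05).

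*Cxcl1* after IL-1β measured 573, 549 and 611 CPM in KO, 374, 388 and 452 CPM in A1, and 261, 322 and 397 CPM in A2. All libraries of both clones were below all KO libraries. The fold was 1.43 lower in A1 (log2 -0.51, SE 0.18, edgeR FDR 0.032) and 1.77 lower in A2 (log2 -0.82, SE 0.18, edgeR FDR 0.0015). The A1 call was lost without replicate 1 or 3 of the KO or replicate 1 or 2 of the A1 libraries (FDR up to 0.1). Untreated *Cxcl1* averaged 11.6 CPM in KO, 15.1 in A1 and 8.01 in A2. Neither clone was called (edgeR FDR 0.16 and 0.05), but A2 passed with a replicate block (log2 -0.54, FDR 0.035) and without the replicate 1 libraries (log2 -0.65, FDR 0.032). It also passed with DESeq2 (FDR 0.027), with 10 counts in each library (FDR 0.043), and without replicate 3 of KO or replicate 1 of A2 (log2 -0.67 and -0.69). With no filter on low counts both clones passed, A1 as higher (log2 0.36, FDR 0.00042) and A2 as lower (log2 -0.56, FDR 2.5e-08).

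*Cxcl2* after IL-1β measured 29.5, 29.9 and 31.6 CPM in KO, 23.8, 24.2 and 27.1 CPM in A1, and 9.18, 12.7 and 14.5 CPM in A2. The libraries of A1 lay just below those of KO and the libraries of A2 well below both. The A2 level was 2.51-fold lower than KO (log2 -1.33, SE 0.18, edgeR FDR 1.3e-05), while A1 was not called (log2 -0.28, 95% interval -0.64 to 0.08, edgeR FDR 0.24). With only the groups compared, A1 passed as lower (edgeR FDR 0.023). Between the clones the level was 2.07-fold lower in A2 than in A1 (log2 -1.05, SE 0.18, edgeR FDR 0.00016). Untreated *Cxcl2* was 1.70-fold lower in A2 than in KO (log2 -0.76, SE 0.25, edgeR FDR 0.024), the only gene of the 4 called between either clone and KO without stimulation (15.1% of all genes were called lower and 32.3% in either direction in A2, and 35.3% in either direction in A1). That call was lost when replicate 1 or 2 of the KO or replicate 1 or 3 of the A2 libraries was left out (FDR up to 0.15) or without all replicate 1 libraries (log2 -0.53, FDR 0.17), and with the newer quasi-likelihood method or only the groups compared.

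*Cxcl3* after IL-1β had 199, 246 and 185 counts in KO, 21, 25 and 19 in A1, and 16, 20 and 50 in A2. The highest clone library, replicate 3 of A2, was far below the lowest KO library. The level was 9.10-fold lower in A1 (log2 -3.19, SE 0.51, edgeR FDR 5e-05) and 7.21-fold lower in A2 (log2 -2.85, SE 0.50, edgeR FDR 0.00016), the largest differences of the 4 genes in both clones, and both were called without any 1 library. Without replicate 3 the A2 value was -3.61. Untreated *Cxcl3* had 28 counts over the 3 KO libraries, 7 in A1 and 11 in A2, with 9 of the latter in replicate 1. The pooled ratio to KO was 0.256 in A1 (95% exact interval 0.0944 to 0.6) and 0.367 in A2 (95% exact interval 0.165 to 0.761), for counting error only. Neither clone was called there (edgeR FDR 0.098 and 0.19). The A1 value of -1.91 (log2) was called with DESeq2 (log2 -1.97, FDR 0.041) and with no filter on low counts (FDR 0.0066), and ranged from -1.57 to -2.52 without a call when 1 library was left out. The A2 value of -1.42 (log2) ranged from -0.84 without replicate 3 to -3.09 without replicate 1 of A2, where it was called (FDR 0.033), as it was without all replicate 1 libraries (log2 -2.81, FDR 0.047) and with no filter on low counts (FDR 0.042).

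**Figure D4:**
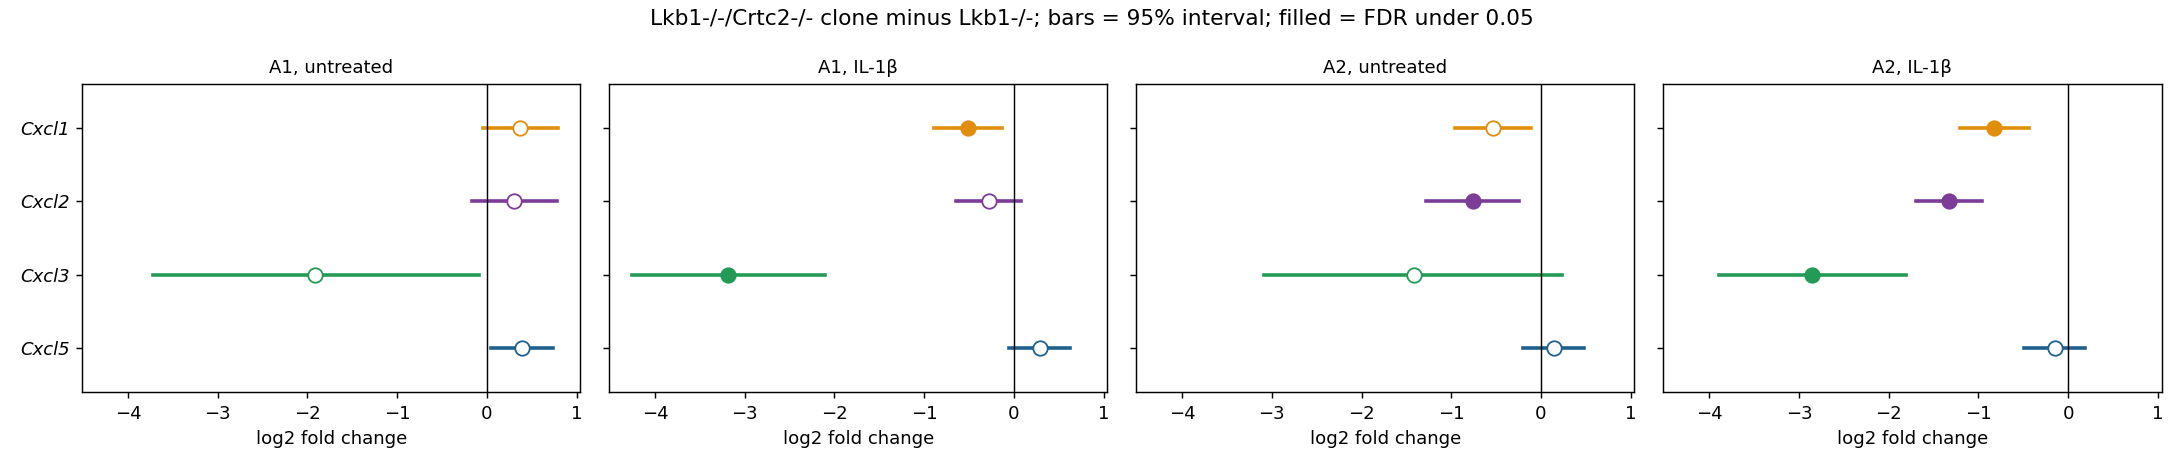
Log2 fold changes of clones A1 and A2 over KO MEFs for the 4 genes, untreated and after IL-1β, on a shared x axis, with 95% intervals as bars and filled points for FDR under 0.05. *Cxcl3* after IL-1β lies far to the left in both clones (-3.19 and -2.85), and *Cxcl5* lies near 0 in all 4 panels (-0.15 to 0.39).

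Ratios of counts inside a library, which no scaling between libraries enters, set the members against each other after IL-1β. For every 100 *Cxcl5* counts there were 85.5, 77.0 and 64.2 *Cxcl1* counts in the WT libraries, 36.1, 31.1 and 31.5 in KO, 18.8, 19.6 and 18.2 in A1, and 22.3, 20 and 20 in A2. The share was highest in WT, lower in KO and lowest in the clones, with no overlap of KO with any other group. The number of *Cxcl2* counts for every 100 *Cxcl5* counts was 0.293 ± 0.0638 in WT, 1.73 ± 0.118 in KO, 1.17 ± 0.0674 in A1 and 0.765 ± 0.0325 in A2 (SD, n = 3). That of *Cxcl3* was 0.207, 0.0229 and 0.0218 in the WT libraries, 0.273 ± 0.0387 in KO, 0.0247 ± 0.00505 in A1 and 0.0394 ± 0.0194 in A2.

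*Cxcl3* was also set against *Cxcl2*, its closest relative in sequence. For every 100 *Cxcl2* counts there were 16.2, 17.1 and 14.0 *Cxcl3* counts in KO, 2.16, 2.38 and 1.75 in A1, and 3.85, 3.36 and 8.47 in A2. Both clones were below KO in every library. KO and WT overlapped here, with 78.9, 6.25 and 8.70 in WT. Of the 12 such comparisons with KO (4 ratios, each with WT, A1 and A2), 11 had no overlap. Each of the 11 gave p = 0.1 in a two-sided exact permutation test (0.109 after Benjamini-Hochberg adjustment over the 12). This is the smallest p that 3 libraries against 3 can give, so that no ratio could pass a threshold of 0.05. The comparisons share the KO libraries, and all but those of *Cxcl3* with *Cxcl2* share the *Cxcl5* counts, so they are not separate results. How often ratios of other genes lack overlap was not tested.

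The clones were compared with WT MEFs too. Without stimulation 3 of the 4 genes were higher in A1 (30.3% of all genes were called higher, 55.4% in either direction) and the same 3 genes, *Cxcl1*, *Cxcl2* and *Cxcl5*, in A2 (32.7% and 60.6%). After IL-1β all 4 were higher in A1 (30.1% and 56.9%) and in A2 (32.0% and 60.8%). *Cxcl5* was 10.4-fold higher in A1 and 7.69-fold higher in A2 after IL-1β, *Cxcl2* 41.1-fold and 19.9-fold, *Cxcl3* 3.31-fold and 4.17-fold, and *Cxcl1* 2.63-fold and 2.12-fold. The *Cxcl3* calls were lost without replicate 2 or 3 of the WT or replicate 1 or 2 of the A1 libraries in A1 (FDR up to 0.13) and without replicate 3 of the A2 libraries in A2 (log2 1.34, FDR 0.089) or with only the A2 and WT libraries in the fit (FDR 0.055). Without replicate 1 of the WT libraries the *Cxcl3* values were larger, at log2 3.34 in A1 and 3.67 in A2 in place of 1.73 and 2.06, and the lowest A1 value was 1.28, without replicate 2 of the WT libraries. The call was lost for untreated *Cxcl1* in A2 (1.66-fold, edgeR FDR 0.0064) without replicate 3 of the WT or replicate 1 of the A2 libraries (FDR up to 0.069).

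Between the clones, *Cxcl1* was 1.88-fold and *Cxcl2* 2.09-fold lower in untreated A2 than in untreated A1 (edgeR FDR 0.0016 and 0.0022; 16.7% of all genes were called lower and 32.5% in either direction). After IL-1β *Cxcl2* and *Cxcl5* were lower in A2 (15.6% called lower, 30.7% in either direction). The *Cxcl5* difference of 1.35-fold (edgeR FDR 0.048) had overlapping libraries and was lost when any 1 of 5 of the 6 libraries was left out (FDR up to 0.23) or without all replicate 1 libraries (log2 -0.31, FDR 0.11).

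Divided by the merged exon length of each gene, the values give 1 measure of the make-up of the chemokine mRNA pool. The merged exons of *Cxcl1*, *Cxcl2* and *Cxcl3* (1875, 2068 and 3498 bases) cover the whole gene, introns included. Their longest coding transcripts have 953, 1859 and 1016 bases. For *Cxcl5* the 2 lengths are 1863 and 1575 bases. Merged exons thus give *Cxcl1* and *Cxcl3* lower shares than the coding transcripts do. The summed level of the 4 genes was 6.02 CPM per kilobase in untreated WT, 44.1 in KO, 57.7 in A1 and 45.7 in A2, and after IL-1β 193, 1270, 1380 and 1030. *Cxcl5* made up 57.6% ± 5.93 of this sum in untreated WT and 57.2% ± 3.54 after IL-1β (SD, n = 3), and *Cxcl1* 42.2% ± 5.87 and 42.7% ± 3.52. In KO the *Cxcl5* share was 84.6% ± 1.38 untreated and 74.4% ± 1.57 after IL-1β, in A1 84.9% ± 2.11 and 83.5% ± 0.505, and in A2 89.9% ± 1.04 and 82.4% ± 0.913.

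*Cxcl1* took most of the rest of the pool, from 9.27% in untreated A2 to 24.3% in stimulated KO among the *Lkb1*-/- lines. *Cxcl2* held at most 1.28% and *Cxcl3* at most 0.139% on average in any group. With the length of the longest coding transcript in place of merged exons, *Cxcl1* held 54.7% and 55.2% in WT, so that the order of *Cxcl1* and *Cxcl5* in WT turns with the length used. With that length *Cxcl1* held 14.5% to 34.8% in the *Lkb1*-/- lines, *Cxcl5* at least 64% there, and *Cxcl3* at most 0.369% in any group.

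**Figure D5:**
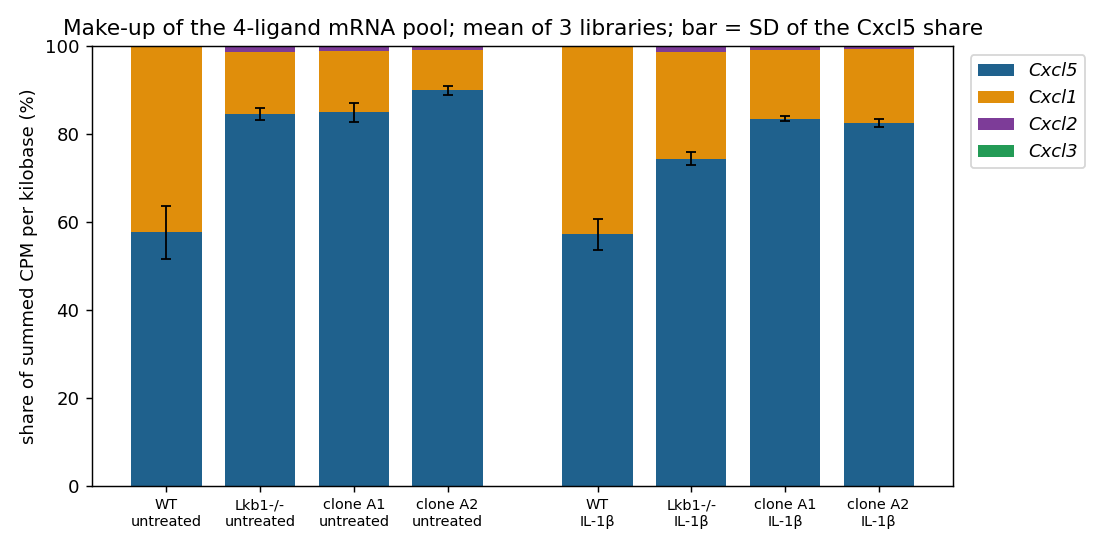
Share of each gene in the summed CPM per kilobase of merged exons of the 4 genes, as stacked bars from 0 to 100%, mean of 3 libraries, with the SD of the *Cxcl5* share as an error bar. *Cxcl5* holds 57.6% in untreated WT and at least 74.4% in each group of *Lkb1*-/- lines, and *Cxcl3* is too small to see.

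Across all 8 groups, the order of levels differed between the genes. After IL-1β *Cxcl5* ran A1, KO, A2, WT from high to low, where A1 and KO, and KO and A2, were not called different. *Cxcl1* ran KO, A1, A2, WT, where A1 and A2 were not (edgeR FDR 0.22), *Cxcl2* ran KO, A1, A2, WT, where KO and A1 were not, and *Cxcl3* ran KO, A2, A1, WT, where A2 and A1 were not (edgeR FDR 0.70). Untreated, no pair of the 3 *Lkb1*-/- lines was called different for *Cxcl5*, and WT was the lowest on average for all 4 genes.

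Among themselves the 4 genes had Pearson's r of 0.779 (*Cxcl3* and *Cxcl5*) to 0.963 (*Cxcl2* and *Cxcl5*) over the 24 libraries. The genes with the pattern most like each member were found by Pearson's r of log2 CPM over the 24 libraries, which share the split by IL-1β, so that r describes that split as much as the genotypes. For *Cxcl1* these were *Nos2* (r = 0.972), *Nfkbiz* (0.971) and *Slc11a2* (0.967), and for *Cxcl5* *Slc11a2* (0.980), *Steap4* and *Fas*. For *Cxcl2* they were *Abcc1*, *Dtwd1* and *Tsku*. For *Cxcl3* the first was *Il6* (0.915), which encodes interleukin 6 and measured 118 ± 8.39 CPM in stimulated KO, 5.88 ± 0.0901 in A1, 16 ± 5.56 in A2 and 3.72 ± 1.07 in WT (SD, n = 3), followed by *Gnpnat1* and *Slc25a37*.

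Of 7 other CXC chemokine genes of chromosome 5, only *Ppbp*, *Cxcl10* and *Cxcl11* passed the filter. *Ppbp*, which encodes another CXCR2 ligand precursor, was higher in KO than WT by 3.01-fold untreated and 3.57-fold after IL-1β (edgeR FDR 8.6e-05 and 1.3e-05) and was not called after IL-1β in any genotype. *Cxcl10*, which encodes a ligand of CXCR3 on T cells, rose with IL-1β in WT. It was 3.17-fold lower in stimulated KO than in stimulated WT (edgeR FDR 0.00058), at 12 ± 1.19 against 38 ± 26.5 CPM (SD, n = 3). The stimulated WT libraries ranged from 771 to 2639 counts. *Cxcl10* thus lay in the opposite direction to the CXCR2 ligands there. *Cxcl11*, for another CXCR3 ligand, had 16 to 51 counts in stimulated WT and at most 11 in any other library. It passed the filter only through the group where it was high. Its rise there and its 5.34-fold lower level in stimulated KO (edgeR FDR 0.0024) are thus description only. None of the receptor genes *Cxcr1*, *Cxcr2* and *Ackr1* passed the filter.

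Of 6 other genes of neutrophil supply and adhesion, *Csf3*, which encodes the neutrophil growth factor G-CSF, was 2.21-fold higher in stimulated KO than in stimulated WT (edgeR FDR 0.016) and *Csf2*, which encodes GM-CSF, 6.46-fold (edgeR FDR 0.00077, on less than 1 CPM). *Vcam1*, *Sele* and *Selp*, which encode adhesion molecules for leukocytes, were lower, *Vcam1* by 6.62-fold. *Icam1* was not called there. These are 2 higher and 3 lower of 6, against 30.2% and 27.1% of all genes. Among them, *Sele* passed the filter only through stimulated WT, with 37 to 54 counts there and at most 3 in any other library. *Selp* passed only through WT, with at least 160 counts there and at most 7 elsewhere. *Csf2* passed only through stimulated KO and A1, with 16 to 25 and 21 to 54 counts and at most 11 elsewhere. The calls of *Sele*, *Selp* and *Csf2* are thus description only. In stimulated A2 4 of the 6 were lower than in KO (15.8% of all genes) and in stimulated A1 1, *Vcam1*, was called, as higher (36.7% of all genes were called in either direction).

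Of 13 genes of the route from the IL-1 receptor to NF-κB, 2 were called higher and 3 lower in untreated KO than WT (30.1% and 25.8% of all genes), with a median log2 fold change of -0.02 against 0.04 for all genes. *Il1r1*, which encodes the receptor, was 1.79-fold higher in untreated KO (edgeR FDR 2.9e-05) and *Il1rap*, its partner chain, was the other. *Il1r1* was 1.65-fold lower in stimulated A1 than in KO (edgeR FDR 0.00036) and was not called in A2 (log2 -0.18, edgeR FDR 0.35). In stimulated A1 6 of the 13 were lower and 1 higher than in KO, and in stimulated A2 4 lower and 1 higher (17.3% and 15.8% of all genes were lower). Only *Nfkb1* and *Il1rap* of the 13 rose with IL-1β in any genotype, against 1.20% to 2.81% of all genes.

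Of 8 NF-κB feedback and C/EBP genes, 7 rose with IL-1β in WT, 7 in KO, 5 in A1 and 8 in A2, against 1.53%, 2.65%, 1.20% and 2.81% of all genes. In untreated KO 6 were higher and 2 lower than in WT, where 55.9% of all genes were called, led by *Cebpb*, a transcription factor gene of acute inflammation, at 217 ± 31.6 against 54.3 ± 6.74 CPM (SD, n = 3; SE of the log2 difference 0.23, edgeR FDR 1.4e-07). *Nfkbiz*, whose product IκBζ acts with NF-κB at late target genes, was 2.28-fold higher. After IL-1β 5 of the 8 were lower and 2 higher in A1 than in KO (36.7% of all genes were called, 17.3% as lower), and 2 were lower and 1 higher in A2 (32.8% called, 15.8% as lower).

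Of 9 genes for decay and stability of chemokine mRNA, 2 were higher and 5 lower in untreated KO than WT (30.1% and 25.8% of all genes), and 1 higher and 6 lower after IL-1β (30.2% and 27.1%). *Zfp36*, which encodes tristetraprolin, stood at 11.1 ± 0.393 CPM in stimulated KO and 35.4 ± 2.54 in stimulated WT (SD, n = 3; log2 -1.68, edgeR FDR 2.4e-13), and its relative *Zfp36l1* was 2.16-fold higher (edgeR FDR 4.9e-08). *Zc3h12a*, which encodes the RNase regnase-1, rose 7.13-fold in WT and 7.72-fold in KO with IL-1β and was not called between the stimulated lines (log2 -0.13, edgeR FDR 0.47). The part of any of these genes in the chemokine levels was not tested.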

How the data were processed

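The authors trimmed paired reads with Trim Galore 0.6.0, aligned them with STAR 2.7.8a to mm10 (GRCm38), and deposited STAR's table of read-pair counts per gene for each library, without normalization. Of the library kit, the labels give SMARTER mRNA-Seq but the study's methods give KAPA with ribosomal RNA depletion, so the kit is not settled. The second-strand column was used (95.5% to 96.0% of stranded counts). Lines that name no gene (26.7% to 34.4% of pairs) were left out, and 55144 of 55471 gene identifiers had a symbol.

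Counts were filtered with filterByExpr (minimum count 10, total 15), scaled by TMM and fitted with edgeR 4.0.16 (R 4.3.3, limma 3.58.1) in its older quasi-likelihood form, with 1 coefficient per group over 24 libraries and 20 contrasts. SE is the log2 fold change over the root of F. Levels per kilobase used merged GENCODE M21 exons. Alternatives were unstranded counts, RLE and upper quartile scaling, the newer quasi-likelihood method, other filters, a replicate block, DESeq2 1.42.0, fits of the compared groups alone, leaving out single libraries and, chosen after seeing the data, a block within each genotype and a fit without replicate 1 of every group.

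The replicate numbers in the labels were taken to pair the libraries: over 9369 genes with a mean log2 CPM above 3, the 84 same-number correlations of deviations from group means ranged from 0.238 to 0.819, and 24 of 24 libraries correlated best with their own number. Over all 17522 genes 15 of the 84 were under 0.1. What the numbers stand for is not given in the sources used here.

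Named genes are the members, *Stk11*, *Crtc2*, the listed pathway genes and, for each member, the 3 genes with the highest correlation. Members and lists were chosen with earlier results of these data known, and the count ratios after their values were seen.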

Additional observations from a re-analysis of the deposited data

How the results depend on the processing

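Of 1361 alternative values of the log2 fold changes of the 4 genes (80 results), 1276 kept their direction and their side of the threshold, 40 fell short of it, 24 newly passed it and 21 changed sign, all of the last among values that were not called. Counts of called members moved as follows, and the cause was not tested except where it is named. Requiring 10 counts in each library removed *Cxcl2* and *Cxcl3*. That left 2 called genes for KO and for both clones against WT in both conditions, and for IL-1β in WT, KO, A1 and A2. It left 1 for each clone against KO after IL-1β and for A2 against A1 in both conditions. With no filter, 3 genes were called for each clone against KO untreated, 4 for IL-1β in WT (3 with the filter), 3 for each A1 or A2 comparison with KO after IL-1β (2 and 3 with it) and for A2 against A1 in both conditions (2 with it), and 1, *Cxcl1*, for the response differences of KO and WT, A1 and KO, and A2 and A1. The gene gained for A1 against KO after IL-1β was *Cxcl5*, as higher. For untreated A1 against KO (0 called) the count was 1 with the replicate block and with only the groups compared (*Cxcl5*, higher) and with DESeq2 (*Cxcl3*, lower). For untreated A2 against KO (1 called) it was 2 with the replicate block, with DESeq2 and without the replicate 1 libraries, 0 with the newer quasi-likelihood method and with only the groups compared, and 0 to 2 when 1 library was left out. The replicate block changed no other member call. With only the groups compared, 3 were called for IL-1β in A2, for A2 against WT after IL-1β and for untreated KO against WT (4 each with all groups), and 3 for A1 against KO after IL-1β (2 with all groups, with *Cxcl2* gained as lower). For A2 against A1 after IL-1β (2 called) it was 1 with unstranded counts, RLE scaling, only the groups compared and without the replicate 1 libraries, and 1 to 2 when 1 library was left out, as for A1 against KO after IL-1β.

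The sign changes were in *Cxcl2* for the response difference of A2 and A1 (-0.01 with upper quartile scaling, -0.13 to 0.18 when 1 library was left out) and, when 1 library was left out, in *Cxcl3* for A2 against WT untreated (-0.10 to 2.45), A2 against A1 untreated (-1.20 to 1.10) and after IL-1β (-0.43 to 0.64), and the response differences of A2 and KO (-2.18 to 0.26) and A2 and A1 (-0.91 to 1.54), and in *Cxcl5* for A2 against KO after IL-1β (-0.34 to 0.05). Without the replicate 1 libraries 4 of these *Cxcl3* values changed sign, to -0.10, -0.58, 0.26 and 1.20 for A2 against WT and against A1 untreated and the response differences of A2 and KO and of A2 and A1.

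Over all genes, the calls after IL-1β in WT, KO, A1 and A2 were 396, 831, 348 and 995, and 1629, 2601, 1684 and 3133 with the replicate block, with 67.7%, 55.8%, 60.3% and 49.5% of the calls higher, and 50.6%, 38.9%, 38.2% and 40.7% with the block. Without a filter they were 954, 1428, 908 and 1643, with DESeq2 624 in WT and 573 in A1, and with only the groups compared 246 in A2 (73.2% higher). Leaving out 1 library gave 203 (without untreated replicate 2) to 412 in WT, 544 (without untreated replicate 2) to 763 in KO, 197 (without untreated replicate 2) to 233 in A1, and 679 to 1890 (without untreated replicate 1) in A2. Without the replicate 1 libraries, a fit chosen after seeing the data, they were 921, 1534, 899 and 2556 (52.6% higher in WT and 41.7% in A1). In A1 48.1% were higher with no filter. In WT 57.4% of the calls were higher with upper quartile scaling, 53.6% with no filter and 53.7% with 10 counts in each library and with DESeq2. The 4 response differences (43, 5, 0 and 0 genes) had 311, 36, 18 and 30 calls with the block, 347, 141, 68 and 147 with no filter, 121, 12, 12 and 10 with DESeq2, and 147, 10, 6 and 20 without the replicate 1 libraries. The 43 were 76 with upper quartile scaling, 70 with 10 counts in each library and with only the groups compared, and 23 (without untreated KO replicate 2 or 3) to 57 when 1 library was left out. With a block within each genotype, chosen after seeing the data, they had 1003, 267, 183 and 262 (and 2823, 3966, 2860 and 4557 genes were called after IL-1β), with none of the 4 chemokine genes. *Cxcl3*, with at most 15 counts in any WT or untreated library, is limited by depth.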
